A study of Mus musculus with 16 samples.

Results

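The UDP-glucuronosyltransferases described here are 10 genes of mouse liver that were chosen by name: Ugt2a3, Ugt2b1, Ugt2b5, Ugt2b34, Ugt2b35, Ugt2b36, Ugt2b37, Ugt2b38, Ugt3a1 and Ugt3a2. They are 10 of the 24411 genes in each count table, and they were chosen with earlier results of these data known. UDP-glucuronosyltransferases sit in the membrane of the endoplasmic reticulum and join a sugar from a UDP-sugar to fat-soluble compounds, which then become soluble enough to leave in bile or urine. The UGT2 enzymes use UDP-glucuronate, and their substrates include steroids, bile acids and drugs. The UGT3A enzymes are the exception to the family name, since in humans UGT3A1 uses UDP-N-acetylglucosamine and UGT3A2 uses UDP-glucose and UDP-xylose. The liver is a main site of glucuronidation, and hepatocytes are its main cell type for it.

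Polyadenylated RNA was sequenced from mouse livers in 4 groups of 4 libraries. The EtOH+MBV mice had an ethanol diet on the NIAAA schedule, in which chronic feeding ends in a binge, and were given matrix-bound nanovesicles (MBV), small vesicles held in the extracellular matrix. The EtOH mice had the same ethanol diet and vehicle. The PF+MBV mice were pair-fed without ethanol and were given MBV, and the PF mice were pair-fed and given vehicle. The sources used here do not state the strain, sex or age of the mice, nor the dose and route of MBV. Nothing in the labels ties each replicate to its own mouse, so the p-values below cover the spread among these libraries, which may be technical. The comparisons ask how the ethanol diet changes these genes, how MBV changes them on each diet, and whether the difference with MBV depends on the diet.

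The 16 libraries held 15271344 to 20493181 reads counted in genes. Hepatocyte markers were high in all 16 libraries, with a summed level of 102800 to 168700 CPM, the count scaled to library size, for the 10 marker genes. Of 4 kidney tubule markers, Umod and Kap had no read in any library, and the list summed to at most 2.27 CPM. Of 4 small intestine markers, Cdx1 had no read in any library, and the list summed to 13.95 to 29.78 CPM in the ethanol groups, against 89.89 to 124.1 CPM in the pair-fed groups. That sum was nearly all Fabp2, a fatty acid binding protein, which fell 5.13-fold in EtOH against PF (edgeR adjusted p = 6.44e-07). On the second principal component of log2 CPM, EtOH 1 stood apart (-74.2) from its group (-17.8 to 11.6). Its pericentral hepatocyte markers summed to 1960 CPM, against 7031 to 9171 CPM in EtOH 2 to 4. Its Kupffer cell markers summed to 438.4 CPM, against 132.9 to 186.0 CPM in those 3. On the first component EtOH+MBV 1 lay at -0.254, and the rest of its group at 41.2 to 49.6. Levels below are in CPM, and a gene is said to have risen or fallen where edgeR's quasi-likelihood test over 12901 genes gave an adjusted p (Benjamini-Hochberg) under 0.05. All 10 genes passed the filter on low counts. Ugt2b37 and Ugt2b38 passed it through the pair-fed libraries, where they were higher, so their place among the tested genes is tied to a difference between the diets.

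In the GRCm38 build of the mouse genome, which mm10 also names, 8 of the 10 genes lie in 534 kb of chromosome 5 and 2 in 94 kb of chromosome 15. Along chromosome 5 their order is Ugt2b34 (86889767 to 86906937), Ugt2b1 (86916638 to 86926530), Ugt2b35 (87000860 to 87013275), Ugt2b36 (87065927 to 87092555), Ugt2b5 (87124960 to 87140318), Ugt2b37 (87240493 to 87254804), Ugt2a3 (87324972 to 87337195) and Ugt2b38 (87409942 to 87424203). Of these, Ugt2b35 is on the plus strand and the other 7 are on the minus strand. On chromosome 15, Ugt3a1 (9276888 to 9315032) and Ugt3a2 (9335550 to 9370955) are both on the plus strand. No other annotated gene overlaps any of the 10.

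Several of these genes are near copies, which bears on how well reads can be told apart. Over the coding sequence Ugt2b5 and Ugt2b38 were identical at 97.0% of bases, with 47 differences and a longest identical run of 443 bases. Ugt2b5 and Ugt2b37 were identical at 94.7%, Ugt3a1 and Ugt3a2 at 93.2%, and Ugt2b35 and Ugt2b36 at 88.5%. The share of a transcript's stretches of 50 bases that also occur in another gene's transcripts was 41.7% for Ugt2b5, 37.4% for Ugt2b38, 18.3% for Ugt2b37, 9.38% for Ugt3a1 and 9.39% for Ugt3a2, 4.55% for Ugt2a3, 2.07% for Ugt2b34, and under 1% for Ugt2b35 (0.725%) and Ugt2b36 (0.326%). Ugt2b1 had no such stretch. The counter keeps only reads that map to 1 place, so reads from shared stretches are lost to these genes, and the counts of Ugt2b5, Ugt2b37 and Ugt2b38 rest on the stretches where they differ. The 60 coding bases below are the window where Ugt2b5 and Ugt2b38 differ most (coding bases 1467 to 1526, 9 differences), written 5′ to 3′ on the coding strand from the GRCm38 annotation's transcripts. Capitals mark bases that differ between Ugt2b5 and Ugt2b38 in their lines, and bases that differ from Ugt2b5 in the Ugt2b37 line.
Ugt2b5: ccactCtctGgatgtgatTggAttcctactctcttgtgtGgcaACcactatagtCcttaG
Ugt2b38: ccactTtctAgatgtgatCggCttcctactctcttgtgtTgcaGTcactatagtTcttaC
Ugt2b37: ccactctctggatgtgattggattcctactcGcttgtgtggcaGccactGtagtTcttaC
Ugt3a1 and Ugt3a2 differed at 106 coding bases, and their longest identical run was 90 bases. Their window with the most differences (coding bases 239 to 298, 16 differences) is printed in the same way.
Ugt3a1: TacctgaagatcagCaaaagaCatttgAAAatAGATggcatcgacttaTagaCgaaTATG
Ugt3a2: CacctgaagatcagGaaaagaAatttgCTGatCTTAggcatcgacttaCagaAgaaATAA

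The promoters of the near copies were alike too. Promoter sequences from RefSeq (GRCm38.p6, 250 bases before to 50 after the start) matched 9 of the 10 genes, all but Ugt3a2. Ugt2b37 and Ugt2b38 were identical at 91.0% of the 300 bases, Ugt2b5 and Ugt2b38 at 87.0%, and Ugt2b5 and Ugt2b37 at 82.3%. The 4 promoters below are shown because these 3 near-identical starts belong to a gene that gave no call with ethanol (Ugt2b5) and to the 2 that fell most (Ugt2b38 and Ugt2b37), and because Ugt2b35 was the gene of the 10 that rose most. Each is written 5′ to 3′ on the strand of its gene, and capitals mark the half-site AGGTCA of nuclear receptors.
Ugt2b5, chr5:87140291-87140590, minus strand: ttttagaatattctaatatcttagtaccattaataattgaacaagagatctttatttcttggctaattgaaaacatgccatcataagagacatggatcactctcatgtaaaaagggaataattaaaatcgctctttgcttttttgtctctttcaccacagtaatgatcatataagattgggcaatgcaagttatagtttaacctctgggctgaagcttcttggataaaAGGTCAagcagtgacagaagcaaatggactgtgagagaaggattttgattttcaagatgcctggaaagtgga
Ugt2b38, chr5:87424154-87424453, minus strand: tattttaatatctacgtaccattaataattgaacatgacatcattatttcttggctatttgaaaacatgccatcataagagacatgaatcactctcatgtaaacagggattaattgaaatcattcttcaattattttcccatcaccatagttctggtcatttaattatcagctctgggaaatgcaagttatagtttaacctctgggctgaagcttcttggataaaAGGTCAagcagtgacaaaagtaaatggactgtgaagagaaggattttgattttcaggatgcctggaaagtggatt
Ugt2b37, chr5:87254739-87255038, minus strand: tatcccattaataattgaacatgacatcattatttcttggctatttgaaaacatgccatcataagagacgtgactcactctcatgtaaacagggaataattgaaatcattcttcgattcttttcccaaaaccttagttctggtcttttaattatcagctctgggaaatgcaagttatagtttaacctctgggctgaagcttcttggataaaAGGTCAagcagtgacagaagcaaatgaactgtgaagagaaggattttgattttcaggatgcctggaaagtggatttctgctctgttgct
Ugt2b35, chr5:87000610-87000909, plus strand: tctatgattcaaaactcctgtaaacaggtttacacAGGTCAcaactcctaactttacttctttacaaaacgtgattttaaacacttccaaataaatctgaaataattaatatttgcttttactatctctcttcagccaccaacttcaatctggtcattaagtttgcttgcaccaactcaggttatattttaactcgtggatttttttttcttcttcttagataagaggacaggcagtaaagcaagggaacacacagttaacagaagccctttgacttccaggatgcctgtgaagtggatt
On either strand, AGGTCA was found in 5 of the 9 promoters (Ugt2b5, Ugt2b35, Ugt2b36, Ugt2b37 and Ugt2b38) and in 16.26% of 32851 mouse promoters of the same length. It began 22 bases before the start in Ugt2b5, 25 in Ugt2b38 and in Ugt2b36, 39 in Ugt2b37 and 215 in Ugt2b35. Since 3 of these promoters are near copies, the 5 are not separate cases. The STAT5 core TTCNNNGAA (8.30% of all promoters) and the antioxidant response core TGACNNNGC (12.4%) were not found in the letters of these windows.

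**Figure D1:**
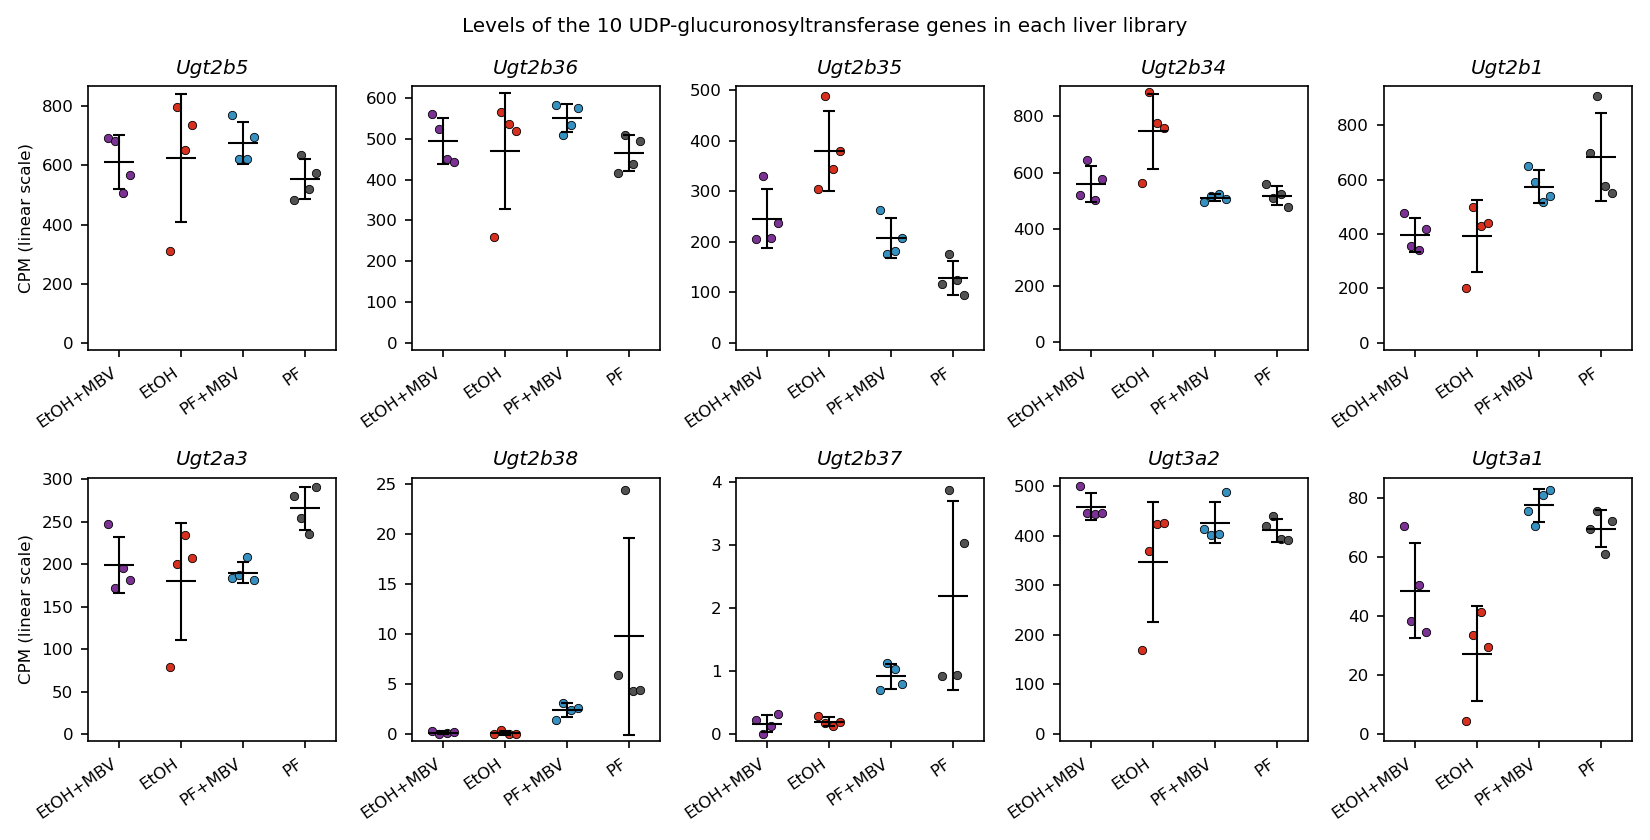
Level of each of the 10 genes in CPM (linear vertical axes, each with its own range) in the 16 libraries by group, with points for libraries, long dashes for means and bars for SD (n = 4). The plots show Ugt2b35 highest in the EtOH libraries (304.4 to 488.6 CPM), Ugt2b38 and Ugt2b37 near 0 in both ethanol groups, and EtOH 1 as the lowest EtOH point in 8 of the 10 genes.

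Read per kilobase of transcript, Ugt2b5 was the highest of the 10 genes in each group. In the PF libraries the mean levels per kilobase were 298.1 ± 35.8 CPM for Ugt2b5, 265.6 ± 63.4 for Ugt2b1, 246.2 ± 23.4 for Ugt2b36, 176.4 ± 9.85 for Ugt3a2, 169.7 ± 11.1 for Ugt2b34, 125.5 ± 11.9 for Ugt2a3, 37.9 ± 10.1 for Ugt2b35, 31.0 ± 2.74 for Ugt3a1, 5.16 ± 5.19 for Ugt2b38 and 1.16 ± 0.793 for Ugt2b37 (SD, n = 4). Across the PF libraries the ranges of Ugt2b5, Ugt2b1 and Ugt2b36 overlapped, as did those of Ugt3a2 and Ugt2b34 and those of Ugt2b35 and Ugt3a1. The ranges of Ugt2a3, Ugt2b38 and Ugt2b37 did not reach that of the gene above them. Summed over the 10 genes, the level was 3017 ± 267 CPM in EtOH+MBV, 3165 ± 869 in EtOH, 3215 ± 176 in PF+MBV and 3106 ± 296 in PF libraries (SD, n = 4). EtOH 1 summed to 1890 CPM, and the other 15 libraries to between 2696 and 3841 CPM. Ugt2b35 made up 9.99% to 16.1% of the sum in EtOH libraries, against 3.21% to 4.95% in PF libraries, and Ugt2b1 made up 10.6% to 13.0% in EtOH libraries, against 18.7% to 25.7% in PF libraries.

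**Figure D2:**
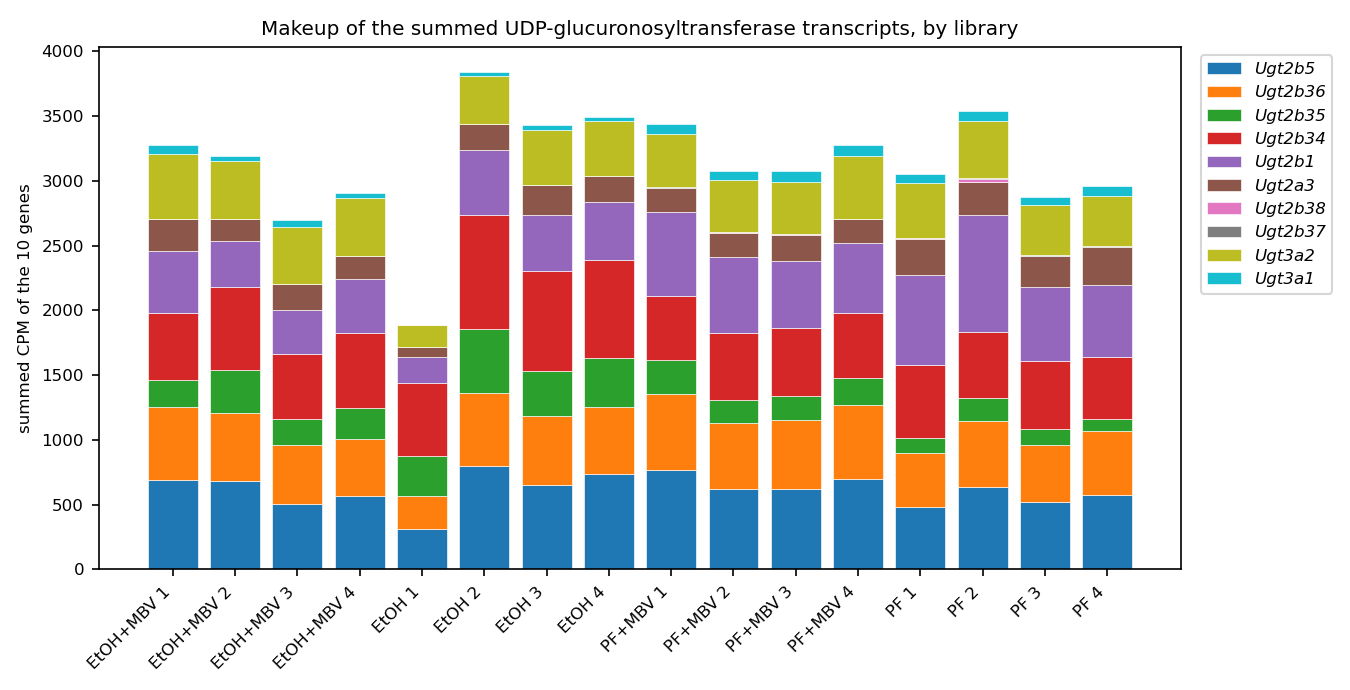
Summed CPM of the 10 genes in each of the 16 libraries, stacked by gene (linear axis from 0). Totals lie between 2696 and 3841 CPM in 15 libraries and at 1890 CPM in EtOH 1, and the share of Ugt2b35 is larger in the EtOH libraries than in the PF libraries.

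With the ethanol diet and vehicle, 2 of the 10 genes rose (Ugt2b35 and Ugt2b34) and 4 fell (Ugt2b38, Ugt2b37, Ugt3a1 and Ugt2b1). Over all 12901 genes tested, 39.8% changed in EtOH against PF, 20.4% higher and 19.5% lower. The EtOH and PF libraries did not overlap for 7 of the 10 genes, and for 32.3% of all genes (15.9% higher and 16.3% lower). The median log2 fold change of the 10 genes was -0.41, and that of all genes was 0.01. In bulk tissue, fewer cells of a type and less RNA per cell cannot be told apart in any of these changes.

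Ugt2b35 rose 2.97-fold with ethanol. It had 304.4, 488.6, 343.3 and 378.7 CPM in the EtOH libraries, against 116.3, 175.2, 123.2 and 94.93 CPM in the PF libraries. Every EtOH library was above every PF library, and the lowest EtOH library was EtOH 1. The change was 1.57 ± 0.21 on the log2 scale (SE, edgeR adjusted p = 3.68e-05), and 1.67 (adjusted p = 2.2e-05) without EtOH 1.

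Ugt2b34 rose 1.44-fold. It had 563.1, 885.8, 775.3 and 757.3 CPM in the EtOH libraries, against 560.1, 508.8, 523.7 and 479.0 CPM in the PF libraries. The groups did not overlap, but EtOH 1 was only just above PF 1. The log2 fold change came to 0.53 ± 0.13 (SE, edgeR adjusted p = 0.00437), and 0.65 (adjusted p = 0.000151) without EtOH 1.

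Ugt2b38, the near copy of Ugt2b5, was nearly lost from the ethanol libraries. In the EtOH libraries it had 1, 7, 0 and 0 reads (0.0484, 0.407, 0 and 0 CPM), against 96, 390, 87 and 71 reads (5.87, 24.4, 4.34 and 4.41 CPM) in the PF libraries. The 2 EtOH libraries with no read could hold up to 0.201 and 0.193 CPM (3 counts each, counting error only). All PF libraries were above all EtOH libraries, and PF 2 was far above the other PF libraries. The fitted log2 fold change was -6.29 ± 0.84 (SE, edgeR adjusted p = 3.75e-05), and the ratio of the mean levels was 85.7-fold. The size rests on few reads: it was -5.30 without PF 2, -8.51 without EtOH 2 and -5.98 without EtOH 1.

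Ugt2b37 had 0.290, 0.175, 0.134 and 0.194 CPM in the EtOH libraries (6, 3, 2 and 3 reads), against 0.917, 3.88, 0.947 and 3.04 CPM in the PF libraries (15, 62, 19 and 49 reads). The groups did not overlap, and the PF libraries fell into a high and a low pair. It fell by 3.38 ± 0.58 on the log2 scale with ethanol (SE, edgeR adjusted p = 0.00031). Without EtOH 1 it fell by 3.63 (edgeR adjusted p = 0.000626).

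Ugt2b5, which shares most of its coding sequence with these 2 genes, did not fall. It had 311.4, 798.8, 652.5 and 735.3 CPM in the EtOH libraries, against 482.9, 635.7, 521.0 and 575.8 CPM in the PF libraries. The EtOH libraries lay both below and above all PF libraries, with EtOH 1 the lowest of the 8. Its log2 fold change was 0.17 ± 0.22 (SE, edgeR adjusted p = 0.547), and without EtOH 1 the other 3 EtOH libraries lay above every PF library and the gene rose, with a log2 fold change of 0.40 (adjusted p = 0.0233). Reads that mapped to more than 1 place made up 5.43% to 7.56% of the EtOH libraries, against 4.57% to 5.31% of the PF libraries, and their part in the values of the near copies was not tested.

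Ugt2b36 had 258.8, 565.2, 535.7 and 519.2 CPM in the EtOH libraries, against 417.2, 510.4, 438.5 and 493.6 CPM in the PF libraries. Here too EtOH 1 was below all PF libraries and the other 3 EtOH libraries were above them. Ugt2b36 had a log2 fold change of 0.02 ± 0.18 (SE, edgeR adjusted p = 0.957), with a sign that turned under 2 other fits (limma voom -0.03, replicate block -0.0001854).

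Ugt2b1, whose rat counterpart conjugates testosterone and morphine, was 1.74-fold lower with ethanol. It had 200.2, 499.7, 430.3 and 441.9 CPM in the EtOH libraries, against 696.5, 909.1, 576.7 and 551.6 CPM in the PF libraries. The groups did not overlap, and EtOH 1 was the lowest and PF 2 the highest of the 8 libraries. On the log2 scale this was -0.80 ± 0.23 (SE, edgeR adjusted p = 0.0113), and -0.57 (adjusted p = 0.0115) without EtOH 1. Fitted on those 2 groups only, its edgeR adjusted p was 0.0509.

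Ugt2a3, whose human counterpart conjugates bile acids, had 78.8, 199.8, 233.7 and 206.6 CPM in the EtOH libraries, against 280.7, 254.7, 235.6 and 291.3 CPM in the PF libraries. The groups did not overlap, by a margin of about 2 CPM between EtOH 3 and PF 3. Its log2 fold change of -0.56 ± 0.23 missed the limit (SE, edgeR adjusted p = 0.0599). Without EtOH 1 it was -0.31 (edgeR adjusted p = 0.0581). With all libraries it passed in DESeq2 (adjusted p = 0.0434) and in limma voom (adjusted p = 0.0439).

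Of the 2 UGT3A genes, Ugt3a1 fell. It was 2.57-fold lower with ethanol, with 4.36, 33.6, 41.4 and 29.6 CPM in the EtOH libraries, against 69.5, 75.6, 61.1 and 72.1 CPM in the PF libraries. The groups did not overlap, and EtOH 1 was far below the other EtOH libraries. The log2 fold change was -1.36 ± 0.40 (SE, edgeR adjusted p = 0.0138), and -0.99 (adjusted p = 0.000952) without EtOH 1. Fitted on those 2 groups only, its edgeR adjusted p was 0.0555.

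Ugt3a2 had 168.8, 368.5, 423.2 and 424.6 CPM in the EtOH libraries, against 419.6, 439.3, 392.9 and 391.5 CPM in the PF libraries. The groups overlapped, and EtOH 1 was the lowest library. The estimate was -0.25 ± 0.20 on the log2 scale (SE, edgeR adjusted p = 0.347), and -0.01 (adjusted p = 0.946) without EtOH 1. Taken within each library, the level of Ugt3a1 was 2.58% to 9.77% of that of Ugt3a2 in EtOH libraries, against 15.6% to 18.4% in PF libraries, and the 2 ranges did not overlap. The marker counts that follow stand beside 20.4% of all genes higher and 19.5% lower in EtOH against PF. Of 10 hepatocyte markers 2 rose and none fell with ethanol (summed level 102800 to 168700 CPM in EtOH libraries, against 112800 to 149300 CPM in PF libraries). Of 7 pericentral hepatocyte markers 5 fell and 1 rose (1960 to 9171 CPM in EtOH libraries, against 10190 to 13590 CPM in PF libraries), and none was at 0. In EtOH+MBV against PF+MBV, 1 of these 7 rose and 1 fell, where 19.2% of all genes were higher and 16.7% lower. In EtOH against PF, 4 of 6 sinusoidal endothelial markers fell and 1 rose (summed level 236.6 to 273.8 CPM in EtOH libraries, against 306.8 to 353.9 CPM in PF libraries). The stellate cell list had 4 of 6 markers higher and 1 lower (201.6 to 378.2 CPM in EtOH libraries, against 210.5 to 230.4 CPM in PF libraries). Of 6 tested monocyte and macrophage markers 3 rose and 1 fell (39.27 to 135.1 CPM in EtOH libraries, against 47.36 to 64.71 CPM in PF libraries), and none of these markers was at 0. EtOH 1 held the highest stellate and monocyte sums. The marker lists, too, were chosen with earlier results of these data known, so their counts are a description. The part of these cell types in the levels of the 10 genes was not tested.

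The same diets could also be set against each other under MBV. In EtOH+MBV against PF+MBV, 2 of the 10 genes fell (Ugt2b38 and Ugt2b37) and none rose, where 35.9% of all genes changed, 19.2% higher and 16.7% lower. The libraries did not overlap for 4 of the 10 genes (Ugt2b1 and Ugt3a1 in addition) and for 39.0% of all genes (19.2% higher and 19.9% lower). The median log2 fold change was -0.15 over the 10 genes and -0.006 over all genes. Of the 10 genes 3 had an unadjusted p under 0.05 in edgeR, as had 45.9% of all genes, and DESeq2 and limma voom each called 2.

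Under MBV, Ugt2b38 had 0.329, 0, 0.0637 and 0.251 CPM in the EtOH+MBV libraries (6, 0, 1 and 4 reads), against 1.41, 3.14, 2.45 and 2.58 CPM in the PF+MBV libraries (24, 58, 47 and 45 reads). Every EtOH+MBV library was below every PF+MBV library, and EtOH+MBV 2, with no read, could hold up to 0.201 CPM. Its log2 fold change was -3.78 ± 0.84 (SE, edgeR adjusted p = 0.00274). For Ugt2b37 the levels were 0.219, 0, 0.127 and 0.314 CPM in the EtOH+MBV libraries (4, 0, 2 and 5 reads), against 0.705, 1.14, 1.04 and 0.802 CPM in the PF+MBV libraries (12, 21, 20 and 14 reads). These groups did not overlap either. The log2 fold change was -2.40 ± 0.63 (SE, edgeR adjusted p = 0.00759).

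Ugt2b1 and Ugt3a1 lay lower in EtOH+MBV without passing the limit. Ugt2b1 had 477.0, 355.0, 339.9 and 417.2 CPM in the EtOH+MBV libraries, against 651.1, 589.3, 516.2 and 537.9 CPM in the PF+MBV libraries (log2 -0.53 ± 0.23, edgeR adjusted p = 0.0792). Ugt3a1 had 70.4, 38.3, 50.6 and 34.7 CPM in the EtOH+MBV libraries, against 75.4, 70.6, 80.9 and 82.8 CPM in the PF+MBV libraries (log2 -0.67 ± 0.40, edgeR adjusted p = 0.194). Both genes passed without EtOH 1, a library of neither group that enters the estimate of the spread, with log2 fold changes of -0.52 (edgeR adjusted p = 0.011) for Ugt2b1 and -0.66 (adjusted p = 0.00651) for Ugt3a1. EtOH+MBV 1 was the EtOH+MBV library closest to the pair-fed levels in both. Without EtOH 1 and EtOH+MBV 1 together, a setting added after the values were seen, the values were -0.62 (edgeR adjusted p = 0.00306) and -0.90 (adjusted p = 6.58e-05).

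**Figure D3:**
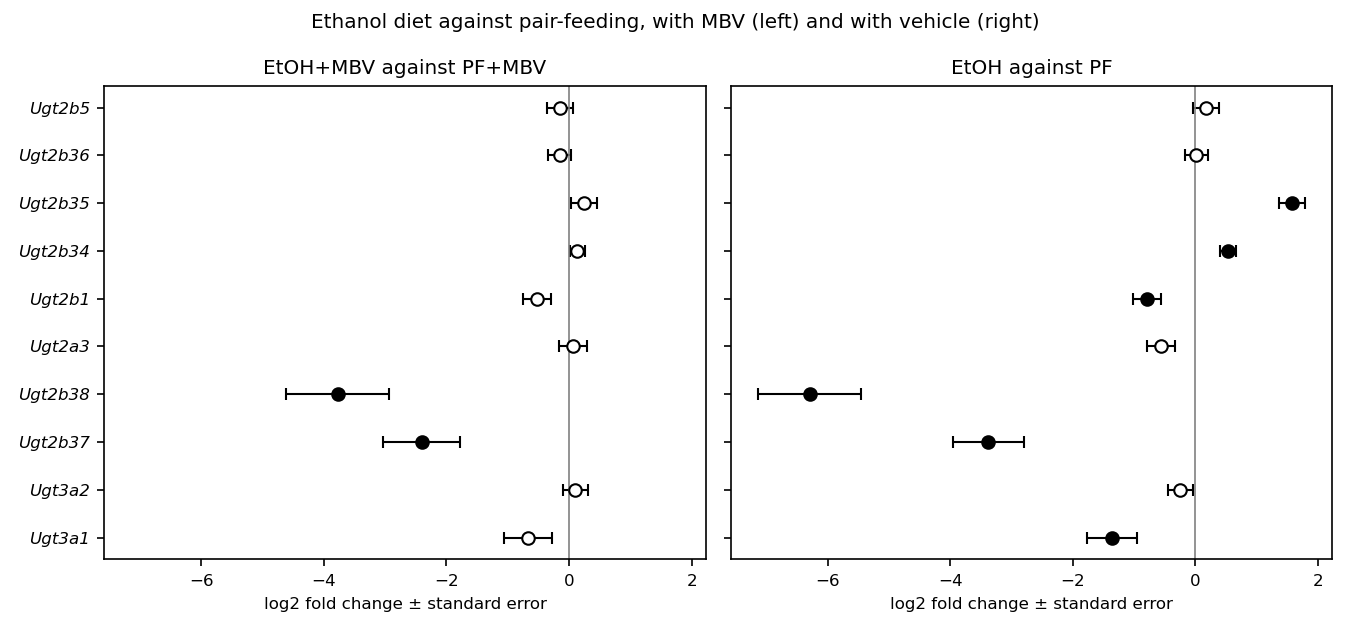
Log2 fold change of each gene with the ethanol diet, under MBV (EtOH+MBV against PF+MBV, left) and under vehicle (EtOH against PF, right), with bars for the standard error and filled points for an adjusted p under 0.05. Ugt2b38 (-3.78 and -6.29) and Ugt2b37 (-2.40 and -3.38) are filled in both panels, and Ugt2b35 is filled under vehicle (1.57) and open under MBV (0.24).

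With MBV none of the 10 genes passed the limit on either diet. In EtOH+MBV against EtOH none of the 10 changed in edgeR, where 2.69% of all genes did (1.24% higher and 1.45% lower), and 2 of the 10 (Ugt2b34 and Ugt2b35) had an unadjusted p under 0.05, as had 21.1% of all genes. DESeq2 called those 2 and limma voom none. The libraries did not overlap for 1 gene, Ugt3a2, and for 7.60% of all genes (4.05% higher and 3.55% lower). The 10 genes had a median log2 fold change of 0.05, and all genes one of 0.006.

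Ugt2b35 had 205.8, 329.9, 206.9 and 237.1 CPM in the EtOH+MBV libraries, against 304.4, 488.6, 343.3 and 378.7 CPM in the EtOH libraries. Of the EtOH+MBV libraries 3 were below every EtOH library, and EtOH+MBV 2 was above EtOH 1. The log2 fold change was -0.63 ± 0.21 (SE, edgeR adjusted p = 0.0975), and -0.72 (adjusted p = 0.109) without EtOH 1.

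Ugt2b34 had 522.4, 643.6, 501.6 and 578.2 CPM in the EtOH+MBV libraries, against 563.1, 885.8, 775.3 and 757.3 CPM in the EtOH libraries. Here EtOH 1 alone lay within the EtOH+MBV range. The fit gave a log2 fold change of -0.41 ± 0.13 (SE, edgeR adjusted p = 0.0885), and it passed without EtOH 1 at -0.52 (adjusted p = 0.0365). Ugt3a2 had 500.6, 445.1, 443.7 and 445.0 CPM in the EtOH+MBV libraries, above all EtOH libraries (168.8, 368.5, 423.2 and 424.6 CPM), with a log2 fold change of 0.41 ± 0.20 (SE, edgeR adjusted p = 0.26). Ugt3a1 had a log2 fold change of 0.84 ± 0.40 (edgeR adjusted p = 0.24), and 0.48 (adjusted p = 0.231) without EtOH 1. The other 6 genes lay between -0.26 and 0.50 on the log2 scale, with adjusted p of 0.759 or more, and for Ugt2a3, Ugt2b1, Ugt2b36 and Ugt2b37 the sign turned without EtOH 1.

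In PF+MBV against PF none of the 10 changed in edgeR, where 1.78% of all genes did (0.752% higher and 1.03% lower), and 4 of the 10 (Ugt2a3, Ugt2b35, Ugt2b37 and Ugt2b38) had an unadjusted p under 0.05, as had 16.9% of all genes. DESeq2 called 1, Ugt2b35, and limma voom none. The libraries did not overlap for 3 genes (Ugt2a3, Ugt2b35 and Ugt2b38) and for 15.0% of all genes (7.70% higher and 7.26% lower). Over the 10 genes the median log2 fold change was 0.02, and over all genes 0.004.

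Ugt2b35 had 262.9, 175.8, 181.6 and 207.2 CPM in the PF+MBV libraries, against 116.3, 175.2, 123.2 and 94.93 CPM in the PF libraries. The groups parted by less than 1 CPM, between PF+MBV 2 and PF 2. The log2 fold change was 0.70 ± 0.21 (SE, edgeR adjusted p = 0.0916), and 0.89 (adjusted p = 0.0192) without PF 2. Ugt2a3 had 184.1, 186.7, 208.0 and 180.8 CPM in the PF+MBV libraries, against 280.7, 254.7, 235.6 and 291.3 CPM in the PF libraries, with no overlap (log2 -0.48 ± 0.23, edgeR adjusted p = 0.295). Fitted on those 2 groups only, Ugt2a3 (edgeR adjusted p = 0.00861), Ugt2b35 (adjusted p = 0.0345) and Ugt2b38 (adjusted p = 0.0456) passed.

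Ugt2b38 was lower in the PF+MBV libraries (1.41, 3.14, 2.45 and 2.58 CPM) than in the PF libraries (5.87, 24.4, 4.34 and 4.41 CPM). The groups did not overlap, and the log2 fold change of -2.02 ± 0.58 missed the limit (SE, edgeR adjusted p = 0.0871). It was -1.02 without PF 2. Ugt2b37 had 0.705, 1.14, 1.04 and 0.802 CPM in the PF+MBV libraries, which overlapped the 0.917, 3.88, 0.947 and 3.04 CPM of the PF libraries (log2 -1.24 ± 0.48, edgeR adjusted p = 0.193). The other 6 genes lay between -0.25 and 0.29 on the log2 scale, with adjusted p of 0.55 or more.

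The difference with MBV depended on the diet for 1 of the 10 genes, Ugt2b35, where this interaction passed for 4.11% of all genes (2.02% above 0 and 2.09% below). MBV went with less Ugt2b35 on the ethanol diet (log2 -0.63) and more on the pair-fed diet (log2 0.70), neither past the limit by itself, and the difference between them was -1.33 ± 0.29 (SE, edgeR adjusted p = 0.0231). As levels, Ugt2b35 averaged 244.9 ± 58.5 CPM in EtOH+MBV, 378.8 ± 79.3 in EtOH, 206.9 ± 39.8 in PF+MBV and 127.4 ± 34.1 in PF libraries (SD, n = 4). The 2 MBV groups overlapped each other, while the EtOH and PF libraries did not. Without EtOH 1 the interaction was -1.42 (edgeR adjusted p = 0.0178). It missed the limit by a little without PF 1 (edgeR adjusted p = 0.0572), PF 3 (0.0533), EtOH+MBV 3 (0.0525) or PF+MBV 1 (0.0507). The other 9 genes lay between -0.39 and 2.52, with adjusted p of 0.208 or more, and DESeq2 and limma voom each called Ugt2b35 alone.

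Genes that make and deliver UDP-glucuronate, the sugar donor of the UGT2 enzymes, were followed as a list of 11, all tested. The counts of this and the lists that follow stand beside 39.8% of all genes that changed in EtOH against PF (20.4% higher and 19.5% lower). The shares were 35.9% in EtOH+MBV against PF+MBV and 4.11% for the interaction. With MBV they were 2.69% on the ethanol diet and 1.78% on the pair-fed diet. All these lists were chosen with earlier results of these data known, so the shares are a description and no test of a list. With ethanol 6 rose and 2 fell, with a median log2 fold change of 0.39 over the list. Ugdh, which oxidises UDP-glucose to UDP-glucuronate, rose 1.87-fold (log2 0.91 ± 0.19, edgeR adjusted p = 0.00133). Slc35d1, which carries UDP-glucuronate into the endoplasmic reticulum, rose 1.60-fold (edgeR adjusted p = 0.000353), and Entpd5, which cleaves the UDP left after sugar transfer, rose 1.86-fold (adjusted p = 4.33e-05). Pgm1, of the phosphoglucomutase family, rose 2.93-fold (edgeR adjusted p = 7.48e-05) from a low level, with means of 13.3 CPM in EtOH and 4.55 CPM in PF libraries. Pgm2, a far more abundant gene of the same list, went the other way. It had 169.5 to 241.3 CPM in EtOH libraries, against 252.5 to 273.2 CPM in PF libraries. In EtOH+MBV against EtOH, Ugdh fell 1.84-fold (edgeR adjusted p = 0.0278) and Pgm1 fell 1.81-fold (adjusted p = 0.0468), and without EtOH 1 and EtOH+MBV 1 together they were 1.70-fold lower (adjusted p = 0.0652) and 1.34-fold lower (adjusted p = 0.129).

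The interaction passed for 3 of the 11, all below 0 like that of Ugt2b35: Ugdh (log2 -1.44 ± 0.26, edgeR adjusted p = 0.0137), Entpd5 (-0.90 ± 0.17, adjusted p = 0.0169) and Ugp2, which makes UDP-glucose (-0.62 ± 0.17, adjusted p = 0.0471). Without EtOH 1 and EtOH+MBV 1 together the count was again 3, in a setting where the interaction passed for 895 of all genes, against 530 with all libraries. Ugdh had 123.9, 150.7, 111.4 and 108.1 CPM in EtOH+MBV libraries, against 275.9, 292.6, 180.6 and 157.3 CPM in EtOH libraries, with no overlap. It had 199.7, 160.4, 151.1 and 206.6 CPM in PF+MBV libraries, against 105.9, 140.8, 111.0 and 126.7 CPM in PF libraries, again with no overlap and in the other direction. These 2 comparisons with MBV share no library. Targets of the oxidant-sensing factor NRF2 include genes of this pathway in rodents. Of 9 such targets, 5 had an interaction that passed the limit below 0, and none passed above it. DESeq2 called 7 below and 1 above, and limma voom 4 below and none above. Without EtOH 1 and EtOH+MBV 1 together, 6 passed below and 1 above. The interactions with the smallest p were those of Gclc (-2.43 ± 0.36, edgeR adjusted p = 0.00468), of glutathione synthesis, Srxn1 (-2.87 ± 0.50, adjusted p = 0.0121), which repairs oxidised peroxiredoxins, and the quinone reductase Nqo1 (-2.31 ± 0.41, adjusted p = 0.0134). Srxn1 spread widely in EtOH libraries, from 203.6 to 950.7 CPM. With ethanol 7 of these 9 rose and none fell. Among the 7 was Cbr3, with at most 0.4985 CPM in PF libraries, which passed the filter on low counts through the ethanol groups.

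**Figure D4:**
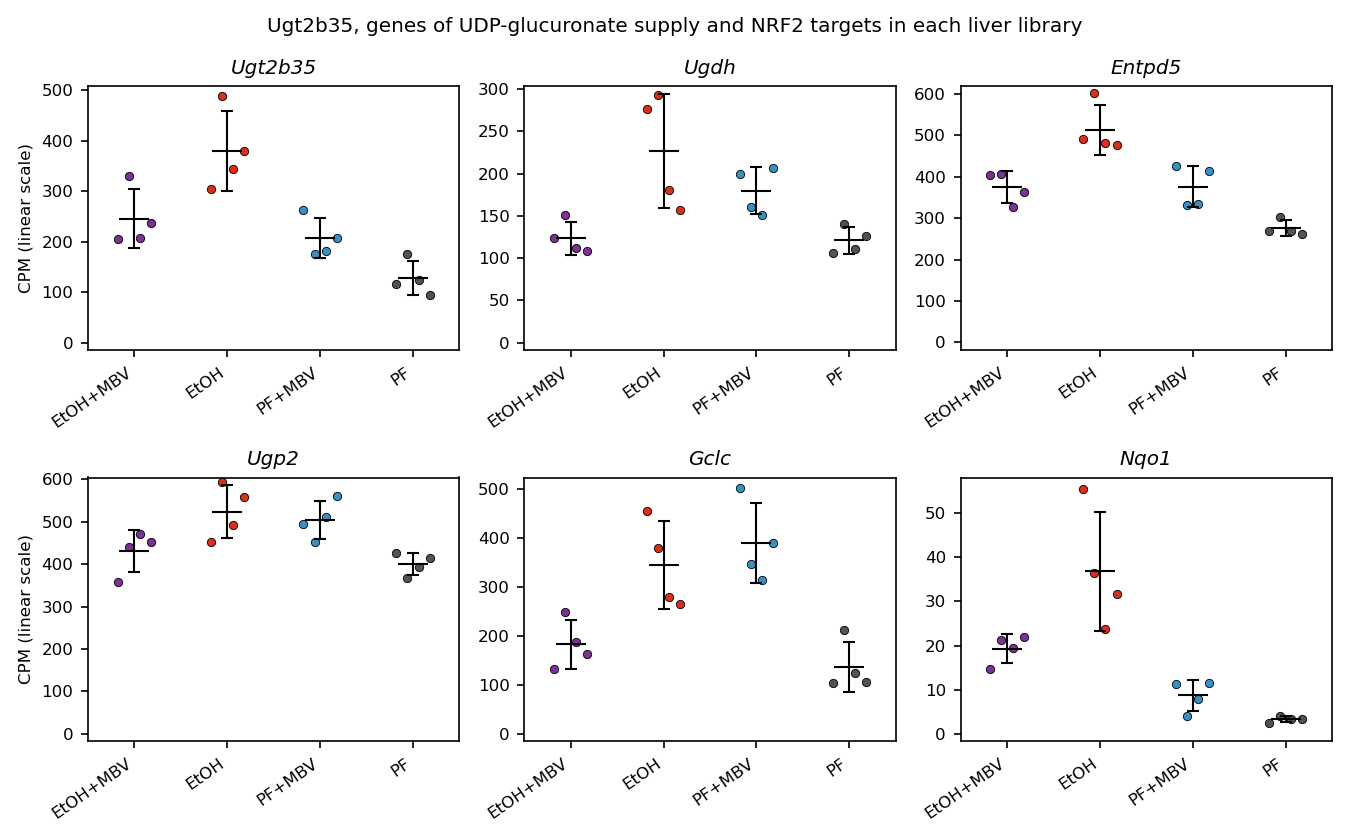
Levels in CPM (linear axes) of Ugt2b35, of the UDP-glucuronate supply genes Ugdh, Entpd5 and Ugp2 and of the NRF2 targets Gclc and Nqo1 in the 16 libraries by group, with means and SD (n = 4). Ugt2b35 averages 378.8 CPM in EtOH and 127.4 CPM in PF libraries, and its MBV groups (244.9 and 206.9 CPM) lie between them.

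The other members of the family could be followed in part. Of 12 other UGT genes 6 were tested, and with ethanol 2 rose and 1 fell. Ugt1a9 rose 6.17-fold (log2 2.63 ± 0.31, edgeR adjusted p = 1.46e-05) and Ugt1a1, the bilirubin-conjugating enzyme, rose 1.63-fold (adjusted p = 0.00564), while Ugt1a5 fell 3.10-fold (adjusted p = 0.000972). The same 3 passed in the same directions under MBV. The Ugt1a genes share all but their first exons, so their counts rest mainly on those first exons. Summed over the 11 in the table, these genes reached 354.9 to 630.3 CPM in EtOH libraries, against 289.2 to 408.8 CPM in PF libraries. This sum largely lacks reads from the shared exons, so it cannot be set against the sum over the 10 genes described here.

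Of 11 tested glucuronide transporters 3 rose and 3 fell with ethanol. The export pumps of the basolateral membrane Abcc4 (27.0-fold, edgeR adjusted p = 8.24e-07) and Abcc3 (2.56-fold, adjusted p = 2.46e-05) rose, and the uptake carrier Slco1a1 fell 11.3-fold (adjusted p = 0.000241). Their interactions were below 0 for Abcc4 (-1.94 ± 0.51, adjusted p = 0.0419) and Abcc3 (-0.89 ± 0.24, adjusted p = 0.0471), 2 of 11, where limma voom called none and 1 was called without EtOH 1 and EtOH+MBV 1 together. Of 10 tested genes that use glucuronate or remove it, 4 fell with ethanol and none rose, among them Gulo (2.02-fold lower, edgeR adjusted p = 0.000182) and Rgn (2.50-fold lower, adjusted p = 0.00105) of vitamin C synthesis and the xylulose kinase Xylb (1.61-fold lower, adjusted p = 0.000152). Of 14 other conjugating enzymes 3 rose and 4 fell, among them the glutathione transferase Gstm1 (9.71-fold higher, edgeR adjusted p = 4.82e-07) and the sulfotransferase Sult1b1 (2.79-fold lower, adjusted p = 0.000139).

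Of 25 tested regulators of UGT genes, 3 rose and 8 fell with ethanol. Those with the smallest p were the oxysterol receptor Nr1h3 (1.87-fold lower, edgeR adjusted p = 6.12e-06), the hepatocyte factor Cebpa (2.86-fold lower, adjusted p = 1.16e-05) and Cux2, a repressor of male-biased genes in female mouse liver (22.2-fold higher, adjusted p = 1.16e-05). Cux2 averaged 16.58 CPM in EtOH and 0.7532 CPM in PF libraries. It passed the filter on low counts through the ethanol groups, so its place among the tested genes is tied to the diet. The interaction passed for 5 of the 25, 4 above 0 and 1 below, and for 8 without EtOH 1 and EtOH+MBV 1 together, 5 above and 3 below. In that setting it passed for 895 of all genes, against 530 with all libraries. Onecut1, or HNF6, was above 0 (3.29 ± 0.44, edgeR adjusted p = 0.00458), and the xenobiotic receptor Ahr was below it (-1.17 ± 0.22, adjusted p = 0.0143). Among target lists of receptors that act on UGT genes, CAR and PXR targets had 5 of 9 higher and none lower with ethanol, and PPARA targets had 2 of 9 higher and 4 lower. Of 13 male-biased liver genes 12 fell and none rose, with a median log2 fold change of -3.22. Of 14 female-biased genes 6 were tested, and 4 rose and none fell, where several were so low in pair-fed livers that they passed the filter only through the ethanol groups. The untested genes stayed near 0 in EtOH libraries too, where Cyp3a44 was the highest of them (mean 0.687 CPM). Cyp3a41a, Cyp3a41b, Cyp3a16 and Sult2a1 had no read there. In EtOH+MBV against PF+MBV, 8 of the 13 male-biased genes fell and 1 rose, and 4 of the 6 tested female-biased genes rose and none fell. The part of these sex-biased genes in the falls of Ugt2b38, Ugt2b37, Ugt3a1 and Ugt2b1 was not tested.

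Few genes of these lists were called with MBV on either diet. In PF+MBV against PF, Onecut1 was 9.06-fold lower (edgeR adjusted p = 0.000128), Ahr 1.72-fold higher (adjusted p = 0.0184) and Nr0b2, a corepressor in bile acid sensing, 3.37-fold higher (adjusted p = 0.0384). The NRF2 targets Gclc (2.85-fold, edgeR adjusted p = 0.00906) and Nqo1 (2.61-fold, adjusted p = 0.0358) rose, and Por, the electron donor of cytochrome P450 enzymes, fell 2.36-fold (adjusted p = 0.0376). None of the 11 supply genes was called there in edgeR, where 5 had an unadjusted p under 0.05 and DESeq2 and limma voom each called 1. Without EtOH 1 and EtOH+MBV 1 together 4 of the 11 rose, in a setting that called 1020 of all genes, against 230 with all libraries. In EtOH+MBV against EtOH, Srxn1 fell 4.22-fold (edgeR adjusted p = 0.0183), Abcc4 fell 2.49-fold (adjusted p = 0.0419) and Nr1h3 rose 1.37-fold (adjusted p = 0.0273). Srxn1 spread widely in EtOH libraries, from 203.6 to 950.7 CPM (437.0 ± 349.5, SD, n = 4). Its EtOH+MBV libraries had 79.24 to 123.6 CPM, so the fall is plain but its size is uncertain. Without EtOH 1 and EtOH+MBV 1 together, Abcc4 was 1.82-fold lower (edgeR adjusted p = 0.134) and Nr1h3 1.24-fold higher (adjusted p = 0.0653).

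Across libraries the 10 genes did not move as 1 group. The correlations that follow are over log2 CPM of the same 16 libraries, which share the diet difference, and are given as a description. Ugt2b5 and Ugt2b36 had the highest correlation (Pearson r = 0.96, and 0.91 over 15 libraries without EtOH 1), then Ugt2b37 and Ugt2b38 (0.92 and 0.93). Ugt2b1 and Ugt2b38 correlated at 0.81 and 0.89, and Ugt2b34 and Ugt2b35, the 2 genes that rose with ethanol, at 0.77 and 0.79. Ugt3a1 and Ugt3a2 correlated at 0.85, which rested on EtOH 1, since r was 0.15 without it. The 97.0% identical pair Ugt2b5 and Ugt2b38 correlated at 0.03, and at -0.29 without EtOH 1. Once each group's mean was taken off, the correlation of Ugt2b5 and Ugt2b36 was 0.97, and that of Ugt2b37 and Ugt2b38 was 0.60. These 16-library values keep EtOH 1, and Ugt3a1 and Ugt3a2 reached 0.95 in the same way. How far they rest on EtOH 1 was not tested.

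**Figure D5:**
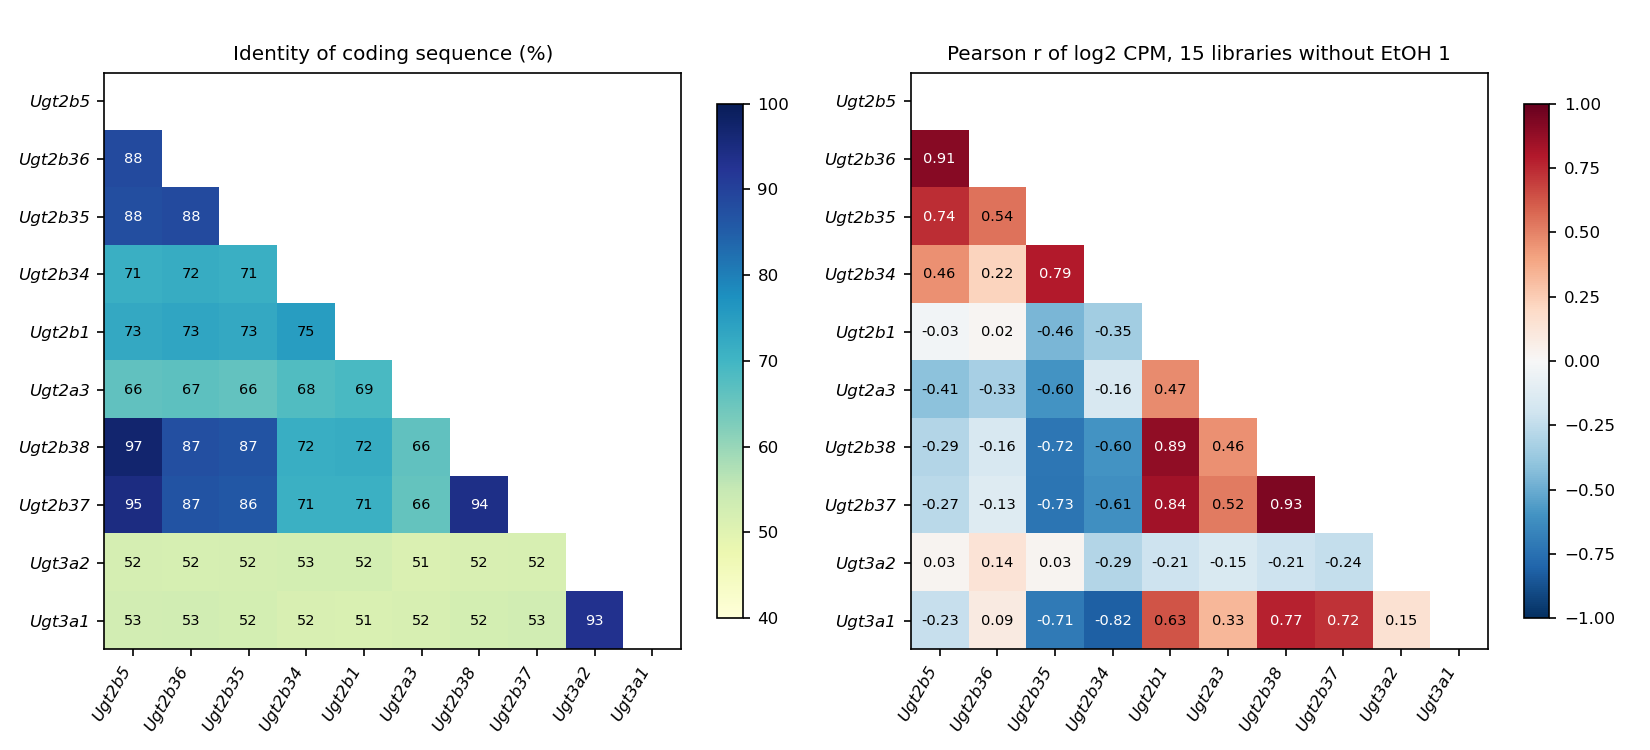
Left, identity of the coding sequences of each pair of the 10 genes in percent, and right, Pearson r of their log2 CPM over 15 libraries without EtOH 1, with the value printed in each cell. Ugt2b38 and Ugt2b5 are 97% identical with r = -0.29, whereas Ugt2b38 and Ugt2b37 are 94% identical with r = 0.93.

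Outside the family, the gene whose level was most like each member's among 11367 genes was Entpd5 for Ugt2b35 (r = 0.95 over 16 libraries, 0.95 without EtOH 1), followed by Ethe1 (0.94) and Gstm4 (0.93). For Ugt2b1 the 3 most alike were major urinary protein genes, Mup12 (0.95, and 0.89 without EtOH 1), Mup1 (0.93) and Mup14 (0.93), which are near copies of each other. For Ugt3a1 they were Sult2a8, Ces3a and Mgst1 (each 0.98, and 0.92 to 0.93 without EtOH 1). Ugt2b34 was most like the ribosomal protein genes Rpl21 (0.91), Rpl23a (0.90) and Rpl17 (0.89), Ugt2b38 like Nudt7 (0.97), and Ugt2b37 like Jade1 (0.93). The likeness of Ugt3a2 to Acot11 (0.97), of Ugt2a3 to Marc2 (0.93) and of Ugt2b5 to Slc46a1 (0.91) was lower without EtOH 1 (0.84, 0.77 and 0.84).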

How the data were processed

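Polyadenylated liver RNA was sequenced in 16 libraries, 4 in each of 4 groups taken from the labels. Reads were trimmed with Trimmomatic and aligned to mm10 with STAR, per the submitters' processing notes, which name no versions among the sources used here. The deposited files hold raw read counts for 24411 genes, whole numbers that sum to a different total in each library. The unstranded count column was used, since 50.58% to 51.79% of reads lay on the first strand. Unmapped reads (11.57% to 19.89%), multimapping reads, reads in no feature (9.397% to 10.87%) and ambiguous reads (1.348% to 1.693%) stayed out of library sizes.

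Counts were fitted with edgeR 4.0.16 in R 4.3.3 (filterByExpr with a minimum count of 10, TMM scaling, quasi-likelihood test over all 16 libraries), with Benjamini-Hochberg adjustment over 12901 genes and a limit of 0.05. The fit was also run on simulated counts with few changed genes, unlike EtOH against PF, so that run checks the code and not the calls reported here. The interaction is the MBV difference on the ethanol diet minus that on the pair-fed diet. Alternatives were DESeq2 1.42.0, limma 3.58.1 voom, other size factors, no filter, summed stranded columns, fits of 2 groups, a replicate block and each library left out. Correlations used log2 CPM with a prior count of 2. Limits given for a count of 0 cover counting error only. Promoters are from RefSeq GRCm38.p6, and coordinates from the GENCODE annotation of GRCm38. The 10 genes, the 11 gene lists and the marker lists were chosen with earlier results of these data known. Named were all 10 genes, up to 3 genes of smallest p per list and comparison, and the 3 genes most correlated with each of the 10 (mean of at least 1 CPM). Ugdh in EtOH against PF was named outside this rule, after its values were seen. Some genes named by this rule are not reported here. Settings that leave out EtOH 1 and EtOH+MBV 1 together were also chosen after seeing the data.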

Additional observations from a re-analysis of the deposited data

Results flagged for a closer look

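In 5 of the 40 groups of 4 libraries (10 genes in 4 groups), 1 library was set apart from the other 3 by a gap that took up most of the range (Dixon's test at its 95% critical value), where chance gives about 1 in 20. Ugt2b36 was lowest in EtOH 1 at 258.8 CPM, against 519.2 to 565.2 CPM in EtOH 2 to 4. Ugt2b38 was highest in EtOH 2 at 0.4072 CPM, which is 7 reads, against 0 to 0.0484 CPM in the other 3. The same gene was highest in PF 2 at 24.43 CPM, against 4.337 to 5.866 CPM in the rest of the group. Ugt3a2 was highest in EtOH+MBV 1 at 500.6 CPM (443.7 to 445.1 CPM in the other 3) and in PF+MBV 4 at 487.3 CPM (402.1 to 412.5 CPM in the other 3).

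The MBV difference of Ugt2b35 was unlike on the 2 diets, with an interaction of -1.328 on the log2 scale (edgeR adjusted p = 0.0231). All 4 of these groups of Ugt2b35 were free of a library set apart in this way.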

How the results depend on the processing

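The 9 calls of single genes gave 215 values under the alternatives, of which 209 kept direction and call, 6 missed the limit and 0 reversed. Of the 6, 4 were the interaction of Ugt2b35 with 1 library left out. The other 2 were Ugt2b1 and Ugt3a1 in EtOH against PF, fitted on those groups only. The 41 results without a call gave 975 values, of which 26 passed the limit and 29 reversed. Why calls differed between settings was not tested.

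For EtOH+MBV against EtOH, 347 genes were called in edgeR, 905 in DESeq2, 247 in limma voom, 205 with the replicate block, 182 without EtOH 1 and EtOH+MBV 1 together, and 0 in edgeR fitted on the 2 groups only, where 1761 had an unadjusted p under 0.05. Of the 10 genes, DESeq2 called 2, and 1 was called without both libraries. For PF+MBV against PF, 230 genes were called, 665 in DESeq2, 1113 in the fit of 2 groups and 1020 without both libraries. Of the 10 genes these settings called 1, 3 and 3. For EtOH+MBV against PF+MBV, the fit of 2 groups and that without both libraries each called 4 of the 10 genes. For the interaction, 530 genes were called, 1113 in DESeq2 and 895 without both libraries.

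With each library left out in turn, calls ranged from 4255 to 5418 genes and from 6 to 7 of the 10 in EtOH against PF, from 8 (without EtOH+MBV 3) to 1147 (without EtOH 4) genes and from 0 to 1 of the 10 in EtOH+MBV against EtOH, from 47 (without PF 1) to 692 (without PF 2) genes and from 0 to 2 of the 10 in PF+MBV against PF, from 3420 to 5485 genes and from 2 to 4 of the 10 in EtOH+MBV against PF+MBV, and from 164 (without PF 1) to 1078 (without EtOH 4) genes and from 0 to 1 of the 10 for the interaction.

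The signs that reversed belonged to log2 fold changes without a call. In EtOH against PF, Ugt2b36 was -0.03290 in limma voom, -0.0001854 with the replicate block and -0.08646 to 0.2248 with a library left out. In EtOH+MBV against EtOH, Ugt2b5 was 0.03152 in limma voom, and without both libraries Ugt2a3 was -0.2213, Ugt2b1 -0.3031, Ugt2b36 -0.1926 and Ugt2b38 -0.4201. Ranges with a library left out were -0.1007 to 0.3065 for Ugt2a3, -0.2027 to 0.1526 for Ugt2b1, -0.2508 to 0.1126 for Ugt2b5, -0.1267 to 0.1757 for Ugt2b36, -0.7090 to 0.1166 for Ugt2b37 and -0.1185 to 2.713 for Ugt2b38. In PF+MBV against PF they were -0.05480 to 0.02065 for Ugt2b34 and -0.01674 to 0.08729 for Ugt3a2. In EtOH+MBV against PF+MBV, Ugt2a3 was -0.04086 without both libraries and -0.05249 to 0.1310 with a library left out, and the interaction of Ugt2b1 was -0.04749 without both.

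Same-numbered libraries did not deviate together (r of -0.09 to 0.16 over 16 pairs, 1 over 0.1), so the numbers were not taken as pairs. The replicate block called 6, 0, 0, 2 and 1 of the 10 genes in the 5 comparisons, the same counts as without it. Depth limits Ugt2b37 and Ugt2b38 in the ethanol groups, where each library held at most 7 reads.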
